A study of Mus musculus with 19 samples.

Results

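Genes of sebaceous gland lipid production were followed through mouse skin carrying early basal cell carcinoma (BCC), skin treated by laser or drug, and healthy skin. The 10 genes were chosen by name and comprise Fasn, Scd1, Scd3, Elovl3, Far2, Awat2, Dgat2, Soat1, Plin2 and Mc5r. All 10 of 10 were among the 18521 genes of the deposited expected-count table, and all 10 passed the filter on low counts that left 15760 genes for testing.

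Sebaceous glands open into the hair follicle and secrete by holocrine release, in which whole lipid-filled cells (sebocytes) burst. Sebocytes make fatty acids, desaturate and elongate them, and store them as wax esters, sterol esters and glycerides in droplets before release. Mouse sebum is rich in wax esters. Several of these genes also work elsewhere in skin, since fat cells make and store triglyceride, and macrophages store sterol esters in droplets coated by the Plin2 protein.

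Poly-A RNA from skin pieces of 1 cm2 was sequenced in 19 libraries from 16 female mice, each with the strain label Ptch1+/- K14-CreER2 p53fl/fl. Every group, healthy skin included, therefore lacked 1 working Ptch1 allele (Ptch1 encodes the Hedgehog receptor that restrains the pathway) and carried floxed Trp53 alleles, which Cre under the keratin 14 promoter deletes in basal keratinocytes after tamoxifen. The BCC+AFL group (3 mice, 4 libraries) had induced skin given 1 ablative fractional laser treatment at 5% density and 40 mJ per microbeam. The BCC+vismodegib group (4 mice, 5 libraries) had induced skin given 8 topical treatments with vismodegib, an inhibitor of the Hedgehog signal transducer Smoothened. The BCC group (4 mice, 4 libraries) had induced, untreated skin, and the healthy group (5 mice, 6 libraries) had skin that was not induced. To induce tumours, mice had tamoxifen injected 3 times at 300 µg and were irradiated once with x-rays at 4 Gy, and all samples carried the label day 4. Vehicle or sham treatment was not analysed here. Ages ran from 228 to 326 days in the induced groups and from 128 to 137 days in the healthy group, and the effects of age and of induction cannot be told apart. Time since induction was 80 to 126 days with laser, 109 to 137 days with vismodegib and 130 to 144 days in BCC skin.

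Libraries held 27185921 to 33556611 counts. Keratinocyte and dermal collagen markers were present as labelled, with 8 of 8 above 0 in every group, and so were 15 of 15 sebocyte and duct genes other than these 10. A whole piece of skin was sequenced, so fewer sebocytes and less RNA per sebocyte cannot be told apart. Growing-hair keratin genes split the mice within groups. Their mean log2 CPM (counts scaled to a common library size by the trimmed mean of M values, TMM) was -2.03 to 3.63 with laser, -0.22 to 8.72 with vismodegib, 0.55 to 8.73 in BCC skin and 3.93 to 9.81 in healthy skin, and the only vismodegib mouse with a high value was mouse 6. All levels below are CPM. Mice are numbered as in the labels, and values are listed in the order of mouse number.

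Plin2 and Elovl3 carried the clearest differences. Plin2, which encodes the perilipin that coats lipid droplets in many cell types, was 3.89-fold higher after laser and 2.35-fold higher after vismodegib than in untreated BCC skin. Elovl3, an elongase that makes very long chain fatty acids in sebaceous glands and hair follicles of mice, was 4.57-fold higher after vismodegib than in BCC skin, and the difference after laser did not pass the test. Scd3, a desaturase gene of mouse sebocytes, was lower after vismodegib than in healthy skin, at 0.099 of that level. Its difference between vismodegib and BCC skin did not pass the test. The healthy mice were also younger and not induced, and Scd3 may share reads with Scd1. With edgeR's quasi-likelihood test (adjusted p under 0.05), 0 of the 10 genes passed between BCC and healthy skin, where 2.82% of all tested genes did.

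**Figure D1:**
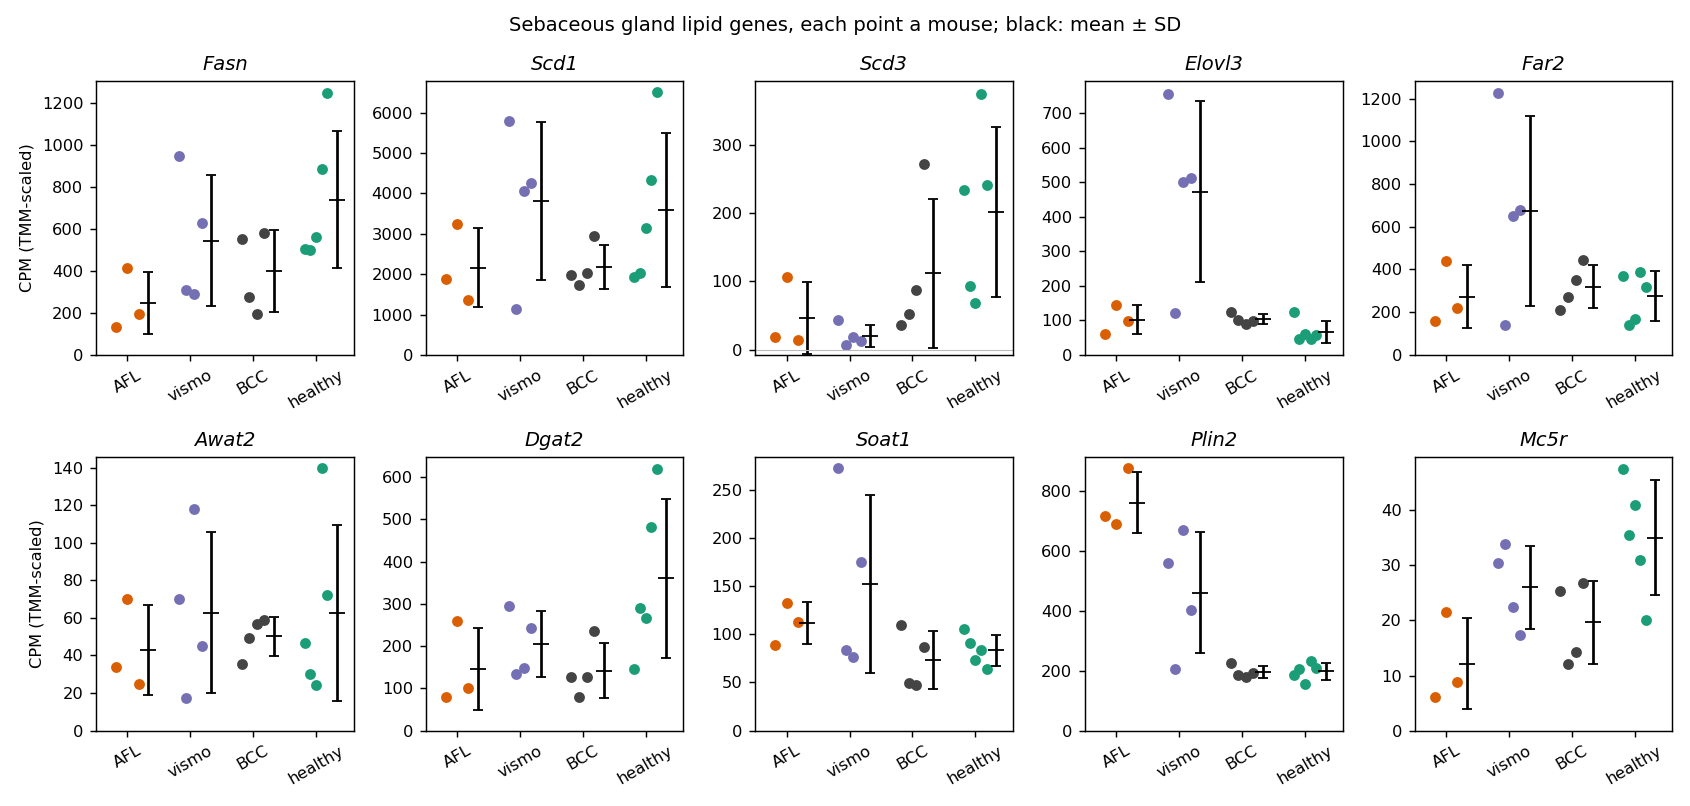
Level of each gene in CPM (linear axis) in each mouse, with 1 panel per gene and the groups BCC+AFL (n = 3), BCC+vismodegib (n = 4), BCC (n = 4) and healthy (n = 5) along the x axis. Points are mice, and lines and bars are the mean and SD over mice; Plin2 in the 3 laser-treated mice lies at 690 CPM or above, while all BCC and healthy mice lie at 234 CPM or below.

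Fatty acid supply starts with Fasn, the fatty acid synthase. Fasn was measured at 135, 415 and 195 CPM after laser and at 949, 307, 289 and 630 CPM after vismodegib. BCC mice had 551, 278, 193 and 582 CPM and healthy mice had 503, 500, 561, 887 and 1247 CPM. All 3 laser-treated mice lay below all 5 healthy mice, yet the log2 fold change of -1.57 (SE 0.53) did not pass (edgeR quasi-likelihood test, adjusted p = 0.0756). Groups overlapped in the other comparisons of Fasn, with log2 fold changes between -1.13 and 0.44 and adjusted p of 0.193 or more.

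The Fasn promoter is shown because CCAAT boxes and sterol regulatory element binding protein (SREBP) sites are known features of lipid synthesis promoters. The window runs from 250 bases before to 50 bases after the start in RefSeq, at chr11:120824498-120824797 on the minus strand of GRCm38.p6. Capitals mark matches to CCAAT on either strand. It holds 3 matches, at 90 to 86, 62 to 58 and 59 to 55 bases upstream of the start, and the last pair overlap.

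Fasn: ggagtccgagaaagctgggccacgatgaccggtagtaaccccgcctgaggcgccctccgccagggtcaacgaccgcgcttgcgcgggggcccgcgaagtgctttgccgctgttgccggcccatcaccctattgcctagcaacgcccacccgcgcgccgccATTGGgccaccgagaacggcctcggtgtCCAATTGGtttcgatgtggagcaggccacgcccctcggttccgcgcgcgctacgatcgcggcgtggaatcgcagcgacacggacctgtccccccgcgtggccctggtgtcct

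The letters CCAAT occur on either strand in 37.4% of all 32851 promoter windows of the same length, so a match is common. RefSeq windows were matched for 6 of the 10 genes (7 windows). None of these held TCACNCCAC (an SREBP site, in 1.24% of all windows), the direct repeat element of PPAR and RXR (in 0.0396%) or GACCACCCA (a GLI site, in 0.253%), searched on both strands. That absence says only that these exact letters are not in these windows.

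Scd1 and Scd3 encode stearoyl-CoA desaturases, which place a double bond in saturated fatty acids. Mice without Scd1 have shrunken sebaceous glands, and Scd3 is known in the mouse as a sebocyte isoform. Scd1 was measured at 1888, 3241 and 1351 CPM after laser and at 5795, 1131, 4062 and 4260 CPM after vismodegib. In BCC skin the values were 1990, 1721, 2018 and 2957 CPM, and in healthy skin 1931, 2022, 3135, 4345 and 6517 CPM. All groups overlapped and none of the 6 comparisons of Scd1 passed, with log2 fold changes between -0.82 and 0.81 and adjusted p of 0.252 or more.

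Scd3 was measured at 18, 107 and 13.4 CPM after laser and at 43.9, 6.36, 18.1 and 11.9 CPM after vismodegib. Untreated BCC skin gave 35.5, 51.8, 87.9 and 272 CPM and healthy skin 234, 93.6, 67.7, 375 and 242 CPM. All 4 vismodegib-treated mice lay below all 5 healthy mice. Scd3 fell after vismodegib relative to healthy skin by 3.34 on the log2 scale (SE 0.85, edgeR adjusted p = 0.0219), or to 0.099 of the healthy level. Among fits that left out 1 mouse, the call did not hold without healthy mouse 15 (-2.99, adjusted p = 0.0502), vismodegib mouse 9 (-3.30, 0.0727) or vismodegib mouse 12 (-3.15, 0.0515). Relative to BCC skin the log2 fold change was -2.48 (SE 0.83) and did not pass (edgeR adjusted p = 0.0525), and 1 vismodegib mouse lay above the lowest BCC mouse. It passed under 8 of 18 alternatives, among them DESeq2 and the fit with the growing-hair level as a covariate (-2.93, adjusted p = 0.00784). After laser the log2 fold change was -1.28 against BCC skin (adjusted p = 0.452) and -2.14 against healthy skin (adjusted p = 0.15), neither of which passed.

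The desaturase genes were set against each other within each mouse. Scd3 counts were 0.279% to 0.758% of Scd1 counts in the 4 vismodegib-treated mice (median 0.503%), 0.952% to 3.30% after laser (median 0.993%), 1.79% to 9.21% in BCC skin (median 3.68%) and 2.16% to 12.1% in healthy skin (median 4.63%). The vismodegib range did not overlap any other group's. These ratios are given as a description without a test.

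**Figure D2:**
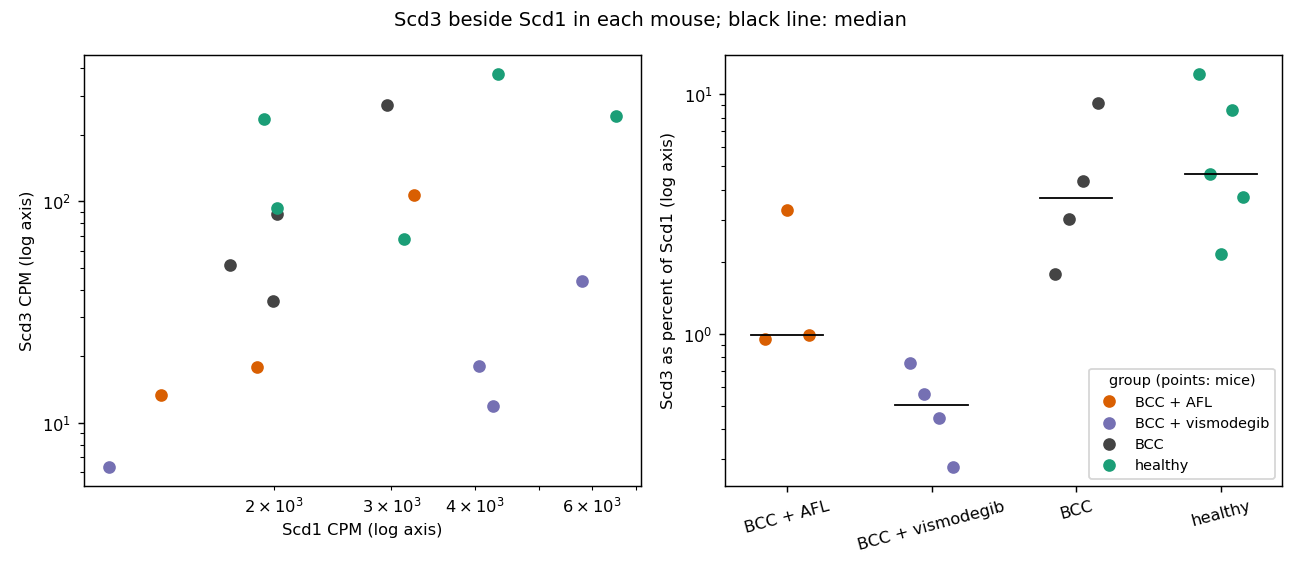
Left, Scd3 against Scd1 in each of the 16 mice, both in CPM on log axes; right, Scd3 counts as a percent of Scd1 counts on a log axis, by group, with a line at the median. Points are mice, and the 4 vismodegib-treated mice lie at 0.758% or below, under every mouse of the other groups.

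Scd1 and Scd3 are paralogs on chromosome 19 whose reads may be shared. Their coding sequences (GENCODE M21, GRCm38) are identical at 974 of 1065 aligned bases (91.5%), and 2.54% of all stretches of 100 bases in the Scd3 transcript also occur in Scd1. The paralogs Scd2 and Scd4 are identical to Scd1 at 90.3% and 85.6% of aligned coding bases, and 0.896% and 0.53% of their 100-base stretches occur in Scd1. Which of these genes reads were divided between was not tested. Expected counts of Scd1 and of Scd3 were not whole numbers in 18 of 19 libraries, as happens when reads are divided between genes, whereas the other 8 genes had whole counts in all 19. A low Scd3 value beside an abundant Scd1 is therefore uncertain by whatever share of reads was divided. Stretches of 120 coding bases are shown to make the problem visible. In the middle of the coding sequence (bases 479 to 598 of Scd3 and 467 to 586 of Scd1) the genes have 0 differences, so reads lying within it cannot be placed.

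Scd3: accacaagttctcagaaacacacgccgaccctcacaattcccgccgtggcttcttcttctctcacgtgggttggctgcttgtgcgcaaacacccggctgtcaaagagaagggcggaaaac
Scd1: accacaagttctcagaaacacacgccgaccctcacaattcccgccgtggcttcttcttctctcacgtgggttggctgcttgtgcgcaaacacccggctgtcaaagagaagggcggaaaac

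In the stretch with the most differences (bases 725 to 844 of Scd3 and 713 to 832 of Scd1) the genes differ at 24 of 120 bases, marked by capitals.

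Scd3: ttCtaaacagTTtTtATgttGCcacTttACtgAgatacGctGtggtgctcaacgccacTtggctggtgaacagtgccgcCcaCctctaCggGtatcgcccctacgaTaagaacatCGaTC
Scd1: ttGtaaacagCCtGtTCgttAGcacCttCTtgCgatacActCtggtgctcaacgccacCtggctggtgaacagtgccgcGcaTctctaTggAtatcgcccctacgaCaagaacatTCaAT

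The Scd3 promoter is shown because Scd3 was called, a choice made after its values were seen. It lies at chr19:44203038-44203337 on the plus strand (RefSeq, GRCm38.p6) and had no match to any of the motifs searched, so it holds no capitals.

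Scd3: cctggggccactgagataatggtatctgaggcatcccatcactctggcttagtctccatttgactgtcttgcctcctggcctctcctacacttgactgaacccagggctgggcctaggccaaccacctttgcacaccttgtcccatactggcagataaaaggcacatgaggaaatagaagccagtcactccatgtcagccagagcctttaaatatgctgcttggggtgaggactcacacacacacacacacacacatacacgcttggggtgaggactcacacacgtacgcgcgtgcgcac

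Elovl3 gave the largest rise of the 10 genes after vismodegib. The values were 757, 121, 502 and 514 CPM after vismodegib, against 124, 102, 89.1 and 98.5 CPM in BCC skin. Of the 4 vismodegib-treated mice, 3 lay at 502 CPM or more, and mouse 6 lay within the BCC range. Laser-treated mice had 61.2, 145 and 99.0 CPM, and healthy mice had 123, 44.8, 59.3, 46.0 and 58.8 CPM. Elovl3 rose after vismodegib relative to BCC skin by 2.19 on the log2 scale (SE 0.46, edgeR adjusted p = 0.00514), or 4.57-fold. Relative to healthy skin it rose by 2.83 (SE 0.43, edgeR adjusted p = 0.000708), or 7.13-fold. Both calls held under all 18 alternatives, including without mouse 6 (2.51 and 3.15) and with the growing-hair level as a covariate (2.00 and 2.42).

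Laser did not move Elovl3 by an amount that passed. Against BCC skin the log2 fold change was -0.02 (95% interval -1.03 to 0.98, edgeR adjusted p = 0.992). The direct comparison of the treatments passed, with Elovl3 lower after laser than after vismodegib by a log2 fold change of -2.22 (SE 0.51, edgeR adjusted p = 0.013). It did not pass when only these groups were fitted (-2.21, 0.0786), without laser mouse 2 (-1.89, 0.0739) or without laser mouse 11 (-2.16, 0.0525).

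Wax esters need fatty alcohols, which Far2 makes by reducing fatty acyl-CoA, and Awat2, which joins an alcohol to a fatty acid. Far2 was measured at 158, 441 and 220 CPM after laser and at 1227, 142, 649 and 678 CPM after vismodegib. BCC mice had 212, 272, 350 and 444 CPM and healthy mice had 372, 139, 168, 388 and 316 CPM. In all, 3 vismodegib-treated mice lay above every mouse of the other groups, and mouse 6 lay near the lowest of them. The log2 fold change after vismodegib was 1.08 (SE 0.52, edgeR adjusted p = 0.159) against BCC skin and 1.29 (SE 0.48, edgeR adjusted p = 0.0881) against healthy skin, and neither passed.

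Awat2 was measured at 34, 70.3 and 24.8 CPM after laser and at 70.3, 17.5, 118 and 44.9 CPM after vismodegib. In BCC skin the values were 35.4, 49.4, 56.9 and 58.8 CPM, and in healthy skin 46.6, 30.3, 24.2, 140 and 72.4 CPM. All groups overlapped, and none of the 6 comparisons passed (log2 fold changes -0.54 to 0.32, edgeR adjusted p of 0.598 or more).

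Dgat2 completes triglycerides, in fat cells as well as sebocytes, and Soat1 esterifies cholesterol. Dgat2 was measured at 80.0, 259 and 101 CPM after laser and at 296, 134, 148 and 243 CPM after vismodegib. Untreated BCC skin gave 128, 79.2, 127 and 235 CPM and healthy skin 145, 290, 266, 482 and 620 CPM. Its log2 fold change of -1.34 between BCC and healthy skin (SE 0.46) had an unadjusted p of 0.00967 and did not pass over all genes (edgeR adjusted p = 0.158), though it passed with DESeq2 (-1.32, adjusted p = 0.0492) and with the growing-hair level as a covariate (-1.70, 0.0275). Fat cell markers lay in the same direction in that comparison. All 11 tested had negative log2 fold changes (median -1.44) and none passed with edgeR. Of them, 7 had an unadjusted p under 0.05 (14.2% of all genes), and 3 passed with DESeq2 (911 of all genes). With the growing-hair level as a covariate 10 passed (967 of all genes). None was at 0 in a group, and their summed level was 581 to 2607 CPM in BCC skin and 1253 to 6989 CPM in healthy skin. Within healthy skin the mouse lowest in fat cell markers (mouse 10) was lowest in Dgat2 and Scd1, and the highest (mouse 16) was highest in Dgat2, Scd1 and Fasn. The other groups matched less. In BCC skin fat cell markers were highest in mouse 5 and lowest in mouse 3, and Dgat2 in mice 8 and 4. After vismodegib both were lowest in mouse 6, but the highest were mice 12 and 1. The Dgat2 rank of mouse 6 rests on the TMM scaling. Before scaling, mouse 9 had 2791 Dgat2 counts of 31858144, and mouse 6 had 4408 of 33319076. After laser fat cell markers and Dgat2 were both highest in mouse 7, but the lowest were mice 11 and 2. Skeletal muscle markers also lay lower in BCC than in healthy skin, with negative log2 fold changes for all 8 tested (median -1.68). None passed with edgeR or DESeq2, and 5 had an unadjusted p under 0.05 (14.2% of all genes). With the growing-hair level as a covariate 7 passed (967 of all genes). None was at 0 in a group, and their summed level was 2179 to 7322 CPM in BCC skin and 6311 to 29722 CPM in healthy skin, with mouse 10 the lowest and mouse 16 the highest of the healthy mice. The part of fat cells and of muscle in the Dgat2 values was not tested.

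Soat1 was measured at 88.9, 132 and 113 CPM after laser and at 273, 83.1, 76.6 and 175 CPM after vismodegib. BCC mice had 110, 48.9, 47.8 and 87.2 CPM and healthy mice had 106, 90.7, 73.2, 83.1 and 63.7 CPM. The log2 fold change after vismodegib was 1.05 against BCC skin (SE 0.37, edgeR adjusted p = 0.0648) with overlapping mice, and it did not pass.

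Plin2 was measured at 717, 690 and 879 CPM after laser and at 560, 206, 672 and 404 CPM after vismodegib. In BCC skin the values were 226, 186, 179 and 192 CPM, and in healthy skin 186, 205, 157, 234 and 211 CPM. All 3 laser-treated mice lay above all other mice, and 3 of 4 vismodegib-treated mice lay above every untreated mouse. After laser Plin2 rose by 1.96 on the log2 scale relative to BCC skin (SE 0.30, edgeR adjusted p = 0.000641), or 3.89-fold. Relative to healthy skin it rose by 1.94 (SE 0.28, edgeR adjusted p = 0.000253). Both laser calls held under all 17 alternatives, with log2 fold changes of 1.81 to 2.04 and 1.62 to 2.01.

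After vismodegib Plin2 rose by 1.23 relative to BCC skin (SE 0.28, edgeR adjusted p = 0.00907), or 2.35-fold, and by 1.21 relative to healthy skin (SE 0.26, edgeR adjusted p = 0.00891). The call against BCC skin did not hold when only these groups were fitted (1.19, adjusted p = 0.0775) or with days since induction as a covariate (1.18, 0.0561). The call against healthy skin did not hold with the growing-hair level as a covariate (0.91, 0.0872). Laser and vismodegib skin did not overlap in Plin2, but the difference of 0.73 (SE 0.30) did not pass (edgeR adjusted p = 0.137). BCC and healthy skin differed in Plin2 by -0.02 (95% interval -0.58 to 0.54).

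Macrophage markers were highest after laser, as Plin2 was. Their summed level over 12 of 12 genes, none of them at 0, was 3389 to 4694 CPM after laser and 668 to 1292 CPM after vismodegib, against 633 to 754 CPM in BCC skin and 923 to 1291 CPM in healthy skin. Relative to BCC skin, 11 of 12 rose after laser, where 7.75% of all genes passed, and 6 of 12 after vismodegib, where 17% did. Relative to healthy skin, 10 of 12 rose after laser (9.24% of all genes passed) and 3 of 12 after vismodegib (11.6%). The sums after vismodegib overlapped those of healthy skin, with medians of 979 and 1057 CPM, and Plin2 was higher after vismodegib. Gene by gene, the median log2 fold change of the 12 markers after vismodegib was 0.79 relative to healthy skin, with 8 positive. Relative to BCC skin it was 1.46, with 11 positive. The genes most like Plin2 over the 16 mice by Pearson r of log2 CPM included Ocstamp (0.959) and Slc15a3 (0.943), given as a description without a p. In vismodegib mouse 9, highest of its group in scaled Plin2, the macrophage sum was also the highest of the group at 1292 CPM. That Plin2 rank rests on the TMM scaling, which enters the macrophage sums too. Before scaling, mouse 9 had 12648 Plin2 counts of 31858144, and mouse 1 had 16401 of 32325084. In mouse 1, second in scaled Plin2 at 560 CPM, the macrophage sum was the lowest at 668 CPM. The part of macrophages in the Plin2 difference was not tested.

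**Figure D3:**
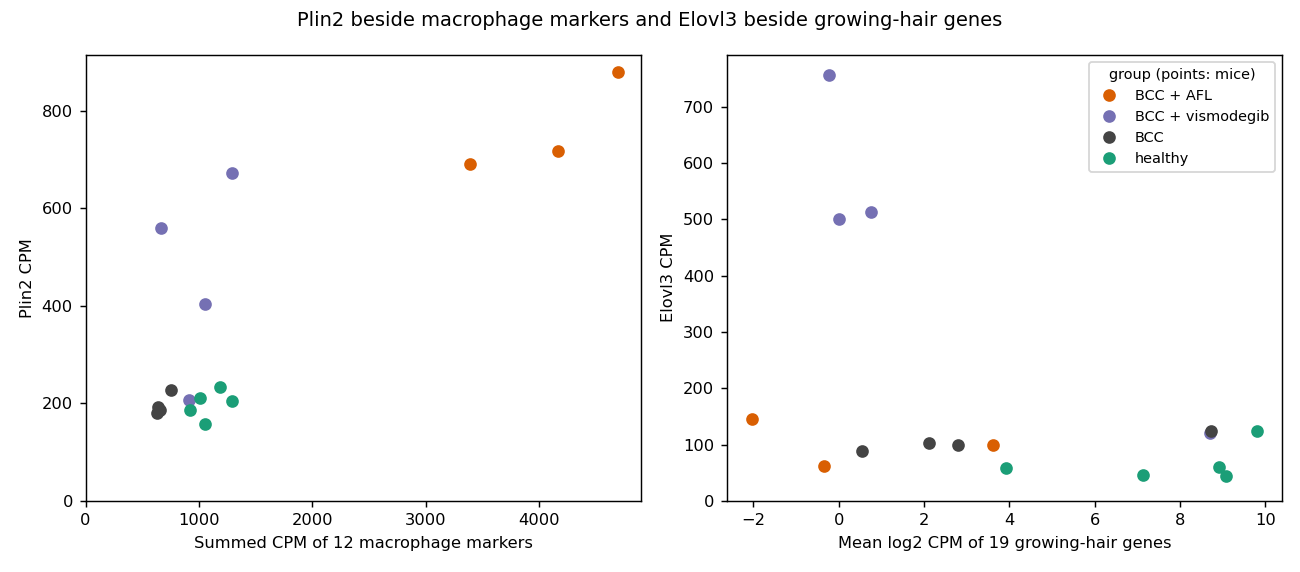
Left, Plin2 (CPM) against the summed CPM of 12 macrophage markers; right, Elovl3 (CPM) against the mean log2 CPM of 19 growing-hair genes, in each of 16 mice coloured by group. Points are mice. Laser-treated mice stand apart in Plin2 and macrophage markers. The vismodegib mouse with growing hair (mean log2 CPM 8.72) is the one at 121 CPM of Elovl3. The BCC and healthy mice highest in growing-hair genes (8.73 and 9.81) are the highest of their groups in Elovl3 (124 and 123 CPM). The laser mouse highest in Elovl3 (145 CPM) is the lowest in growing-hair genes (-2.03).

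The Plin2 promoter is shown because Plin2 passed in 4 comparisons. The window lies at chr4:86670010-86670309 on the minus strand (RefSeq, GRCm38.p6). Capitals mark CCAAT at 73 to 69 bases upstream and the E-box CACGTG, which spans the start and is present in 7.15% of all windows.

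Plin2: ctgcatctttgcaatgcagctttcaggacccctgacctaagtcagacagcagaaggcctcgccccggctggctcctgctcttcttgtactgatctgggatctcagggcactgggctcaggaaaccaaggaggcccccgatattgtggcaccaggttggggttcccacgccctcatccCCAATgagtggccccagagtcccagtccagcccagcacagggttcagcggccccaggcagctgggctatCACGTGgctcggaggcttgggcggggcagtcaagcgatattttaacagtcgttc

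Mc5r encodes the melanocortin receptor through which sebum secretion is regulated in mice. Its level was 6.06, 21.5 and 8.86 CPM after laser and 30.4, 34, 22.4 and 17.4 CPM after vismodegib. Untreated BCC skin gave 25.3, 12.1, 14.2 and 26.8 CPM and healthy skin 47.5, 35.6, 41.0, 30.9 and 20.1 CPM. In Mc5r, 2 of 3 laser-treated mice lay below every healthy mouse. Mc5r fell after laser relative to healthy skin by 1.53 on the log2 scale (SE 0.42, edgeR adjusted p = 0.0311). The call did not hold with the growing-hair level as a covariate (-1.04, adjusted p = 0.361), nor without healthy mouse 10 (-1.41, 0.0666), 13 (-1.52, 0.0576) or 14 (-1.48, 0.0634) or laser mouse 2 (-1.21, 0.152) or 11 (-1.37, 0.17). Between BCC and healthy skin the log2 fold change was -0.83 with an unadjusted p of 0.039, and it did not pass (edgeR adjusted p = 0.318). Of 8 other melanocortin pathway genes in the table, 4 were tested and none passed with edgeR in any of the 6 comparisons. At most 2 of the 4 had an unadjusted p under 0.05 in a comparison, and at most 1 passed with DESeq2.

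Read by comparison, these counts stood against the share of all tested genes that passed. Between BCC and healthy skin 0 of 10 genes passed with edgeR against 2.82% of all genes, 2 had an unadjusted p under 0.05 against 14.2%, and 1 (Dgat2) passed with DESeq2. After laser relative to BCC skin 1 of 10 passed against 7.75% of all genes. After vismodegib relative to BCC skin 2 of 10 passed against 17% of all genes. After laser relative to vismodegib 1 of 10 passed against 9.15%. Relative to healthy skin, 2 of 10 passed after laser against 9.24% and 3 of 10 after vismodegib against 11.6%. With counts this small, none of them is a result about the set. The counts also moved with the processing and with single mice. For laser against healthy skin 5 passed with DESeq2, with unsummed libraries and without laser mouse 7, 4 with the growing-hair covariate, and 1 without healthy mouse 10, 13 or 14 or laser mouse 2 or 11. For vismodegib against healthy skin 5 passed without vismodegib mouse 6, and 4 with DESeq2 and with unsummed libraries. In that comparison 2 passed with the growing-hair covariate and without healthy mouse 15 or vismodegib mouse 9 or 12. For vismodegib against BCC skin 4 passed with DESeq2, with unsummed libraries and without BCC mouse 3 or vismodegib mouse 6, and 1 with only these groups fitted. For laser against BCC skin 3 passed with days since induction as a covariate. For laser against vismodegib none passed with only these groups fitted or without laser mouse 2 or 11, 2 passed with library size alone, with unsummed libraries and without laser mouse 7 or vismodegib mouse 6, and 3 with the days covariate. For BCC against healthy skin, laser and vismodegib against BCC skin, laser against vismodegib, and laser and vismodegib against healthy skin, in that order, 0, 1, 0, 1, 2 and 1 of the 10 genes had mice that did not overlap, against 6.65%, 18.8%, 16.4%, 22.2%, 25.7% and 16.1% of all genes. The median log2 fold change of the 10 genes was 0.67 after vismodegib and -0.12 after laser relative to BCC skin, where all tested genes had medians of 0.05 and -0.04. The treated groups share the BCC mice as their comparison, and these values are set side by side only.

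**Figure D4:**
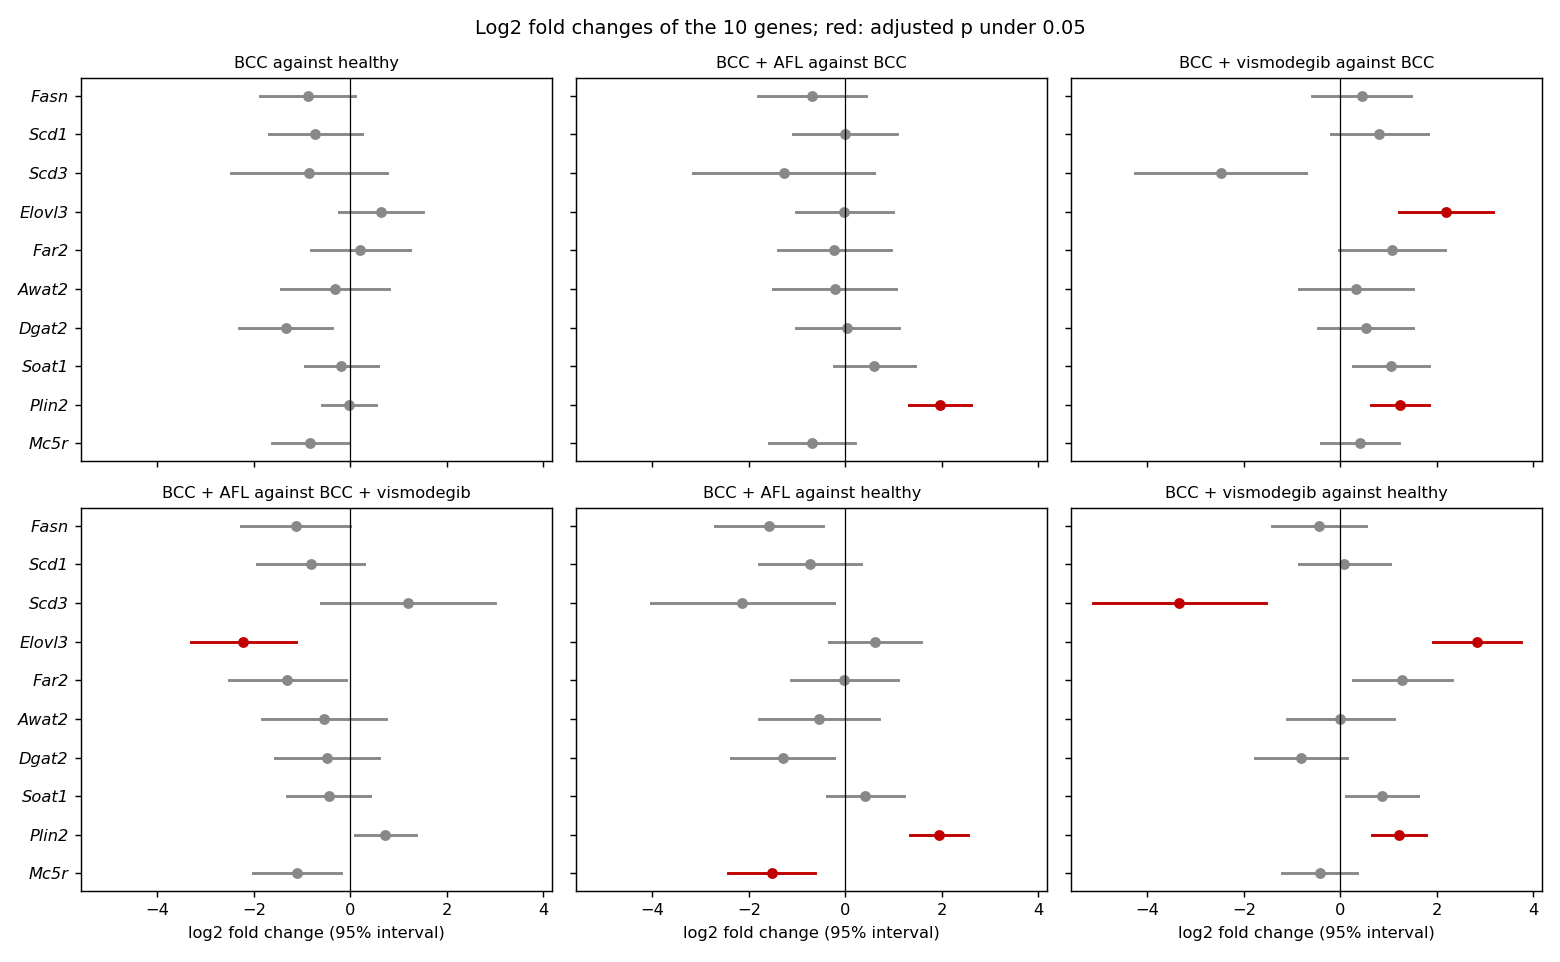
Log2 fold change of each of the 10 genes in the 6 comparisons, with 95% intervals from edgeR's quasi-likelihood fit over 16 mice. Red points passed at an adjusted p under 0.05 and grey points did not; red are Plin2 in 4 comparisons, Elovl3 in 3, and Scd3 and Mc5r in 1 each.

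The scaling of libraries moved the median of all genes. With library size alone, the median of all genes shifted to -0.30 for vismodegib against BCC skin (0.05 with TMM), to -0.25 for vismodegib against healthy skin, to -0.18 for laser against BCC skin and to 0.16 for laser against vismodegib. Of the genes that passed for vismodegib against BCC skin, 16.9% were higher with library size alone and 47.2% with TMM. For vismodegib against healthy skin 39.7% and 65% were higher, and for laser against vismodegib 87.6% and 73.1%. Relative to those shifted medians, Elovl3 and Plin2 stood 2.11 and 1.10 higher after vismodegib than in BCC skin, and Plin2 stood 2.00 higher after laser.

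Per length of transcript, the genes differed widely in level. By group mean Scd1 was the most abundant in every group, with 447 CPM per kilobase after laser, 789 after vismodegib, 449 in BCC skin and 743 in healthy skin. In BCC skin the order by level per kilobase was Scd1, Plin2 (104), Far2 (91.8), Dgat2 (62.9), Elovl3 (55.0), Fasn (39.9), Scd3 (32.1), Awat2 (25.3), Soat1 (8.77) and Mc5r (5.03). The mice overlapped between neighbours in that order except between Scd1 and Plin2 and between Awat2 and Soat1. After vismodegib Elovl3 stood second at 252 CPM per kilobase, close to Plin2 at 244, and Scd3 was last at 5.75. After laser Plin2 stood second at 404, but its mice overlapped those of Scd1. In laser mouse 11 Plin2 (466) lay above Scd1 (280).

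In some groups, a single mouse was highest or lowest in most of the 10 genes. How often all tested genes were highest or lowest in these mice was not counted. Laser mouse 7 was highest of its group in 9 of 10 genes, all but Plin2. Vismodegib mouse 1 was highest in 7 of 10, and vismodegib mouse 6 was lowest in 7 of 10 and highest in Mc5r. For Dgat2 the lowest rank of mouse 6 rests on the TMM scaling. BCC mouse 8 was highest in 7 of 10, but the lowest values in BCC skin were spread over mice 3, 4 and 5 (3, 3 and 4 genes). No healthy mouse was highest in more than 4. Laser mouse 7, vismodegib mouse 1 and BCC mouse 8 each also had the highest summed level of skeletal muscle markers in their group (12574, 10758 and 7322 CPM). So did healthy mouse 16 (29722 CPM), highest in Dgat2, Fasn and Scd1 but lowest in Mc5r and Soat1. Healthy mouse 15 was highest in Awat2, Far2, Plin2 and Scd3. BCC mouse 3, lowest of its group in muscle markers (2179 CPM), was highest in Elovl3, Plin2 and Soat1. Laser mouse 7 was also the youngest of its group (228 days). It and vismodegib mouse 1 had the shortest times since induction of their groups (80 and 109 days). The parts of muscle, age and time since induction in these levels were not tested. Pairs of libraries from the same mouse differed too. In vismodegib mouse 12 the same library was higher for all 10 genes, by 1.41-fold for Plin2 to 3.58-fold for Scd3, with Elovl3 at 317 and 697 CPM. In laser mouse 11 the same library was higher for 9 of 10, by up to 2.61-fold for Elovl3 (145 and 55.7 CPM), while Plin2 differed by 1.04-fold. In healthy mouse 16 the same library was higher for 9 of 10, by up to 2.00-fold for Scd3 (165 and 330 CPM), with Dgat2 at 460 and 806 CPM.

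By the same measure of likeness as for Plin2, over 16 mice and without a p, Fasn was most like Slc25a1 (0.962), the mitochondrial citrate carrier, and Srebf1 (0.934), the gene of SREBP1. Elovl3 was most like Acot5 (0.973), Cpox (0.963) and Acox2 (0.954), and Far2 most like Pank1 (0.957). Scd3 was most like Hamp2 (0.950). Mice of different groups enter these values, so they also carry the differences between groups.

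Related genes of the same pathways were counted from lists that exclude the 10 genes. Their counts after vismodegib relative to BCC skin stand against the 17% of all tested genes that passed there. In that comparison 5 of 12 genes of wax ester, glyceride and sterol ester synthesis rose and none fell. They were the wax and glyceride acyltransferase genes Dgat2l6 (log2 fold change 2.02, edgeR adjusted p = 0.0275), Awat1 (1.56, 0.0314), Dgat1 (1.03, 0.0285) and Agpat3 (0.95, 0.0332), and Soat2 (2.16, 0.0339), named after its values were seen and at most 2.31 CPM in any vismodegib mouse. Awat1 lay at 46.4 to 260 CPM (median 207) after vismodegib, against 56.5 to 63.4 CPM (median 62.3) in BCC skin, and Dgat2l6 at 11.6 to 75.5 CPM (median 51.7), against 7.41 to 16.5 CPM (median 11.5). Awat1, Dgat1 and Dgat2l6 overlapped between the groups. The list's median was 0.74, against 0.05 for all genes. Its count fell to 0 without BCC mouse 4 or 8 or vismodegib mouse 1 or 9 and with library size alone, to 2 without BCC mouse 3, to 1 without BCC mouse 5 or with days since induction as a covariate, and to 2 with only these groups fitted.

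Among fatty acid synthesis and elongation genes 3 of 18 rose after vismodegib relative to BCC skin and none fell (median 0.38), a share near the 17% of all genes and so not a result about the list. The 3 were Elovl7 (1.77, adjusted p = 0.00338), Elovl1 (0.99, 0.0259) and Hsd17b12 (0.95, 0.0311), all of fatty acid elongation. Elovl7 lay at 187 to 498 CPM after vismodegib and at 69.0 to 141 CPM in BCC skin, without overlap. Of 14 droplet and lipolysis genes, 2 rose (median 0.45), which is also near the share of all genes. They were Abhd5, the co-activator of triglyceride lipase (1.26, 0.00162), and Hilpda, an inhibitor of that lipase (1.28, 0.0314). Abhd5 lay at 109 to 228 CPM after vismodegib and at 59.4 to 88.7 CPM in BCC skin. The number that rose in either list was 1 with library size alone, with only these groups fitted and with days since induction as a covariate. It was also 1 for the synthesis and elongation list without BCC mouse 4 or 5 or vismodegib mouse 1 or 9, and for the droplet list without BCC mouse 4, 5 or 8 or vismodegib mouse 9, and it was 4 for the droplet list without vismodegib mouse 6. With the growing-hair covariate and without vismodegib mouse 6, 2 genes of the synthesis and elongation list fell.

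Of 15 other sebocyte and duct genes, 4 rose and 1 fell after vismodegib relative to BCC skin (median 1.02); Awat1 and Dgat2l6 belong to this list too. Fabp5, a fatty acid binding protein of sebocytes and keratinocytes, rose by 2.92 (adjusted p = 0.00496), with 3284 to 18400 CPM (median 3663) after vismodegib and 555 to 1525 CPM (median 877) in BCC skin. Mgst1 rose by 1.35 (adjusted p = 0.0456), but a single vismodegib mouse stood at 1218 CPM beside a median of 267. Krt7, a duct and simple epithelium keratin, fell by 3.55 (adjusted p = 0.00111). The number that rose was 1 without BCC mouse 3, 4 or 8 or vismodegib mouse 9, 2 without BCC mouse 5 or vismodegib mouse 1, and 8 without vismodegib mouse 6. It was 1 with library size alone or with days since induction as a covariate, and 2 with only these groups fitted or with the growing-hair covariate. Among 12 regulators of sebaceous cells none rose and 3 fell, namely Lrig1, a marker of stem cells above the bulge (-1.85, adjusted p = 0.00201), Sox9 (-1.23, 0.0203) and Gata6 (-1.31, 0.0456), with a list median of 0.02. The count of falls was 1 without vismodegib mouse 9 or 12 and with only these groups fitted.

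After laser relative to BCC skin none of these 4 lists of synthesis, storage and sebocyte genes had a gene that passed with edgeR. In the order fatty acid, ester synthesis, droplet and sebocyte genes, the list medians were -0.24, 0.11, 0.34 and -0.20. In the same order 1 of 18, 2 of 12, 1 of 14 and 3 of 15 genes had an unadjusted p under 0.05 (20.6% of all genes), and 0, 2, 0 and 2 passed with DESeq2. Among the regulators Nr1h3, a sterol sensor that macrophages also use, rose by 1.55 (edgeR adjusted p = 0.0269) and Sox9 fell by 1.41 (0.0248). No regulator passed without BCC mouse 3 or laser mouse 7, none rose without BCC mouse 4 or laser mouse 2 or with library size alone or either covariate, and none fell without BCC mouse 8 or laser mouse 11. Nr1h3 lay at 13.1 to 24.8 CPM after laser and at 5.38 to 8.36 CPM in BCC skin. In the direct comparison, Awat1 (-1.72, adjusted p = 0.0476), Abhd5 (-0.81, 0.04) and Krt17 (-1.75, 0.0413) were lower after laser than after vismodegib, and Krt7 was higher (2.16, 0.0256). None of the genes of these lists passed in that comparison without laser mouse 2 or vismodegib mouse 1 or 9 or with only these groups fitted. More did without vismodegib mouse 6, with 4, 3, 3 and 5 lower genes in the order of fatty acid, ester synthesis, droplet and sebocyte genes, and with DESeq2, with 5, 2, 3 and 7.

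**Figure D5:**
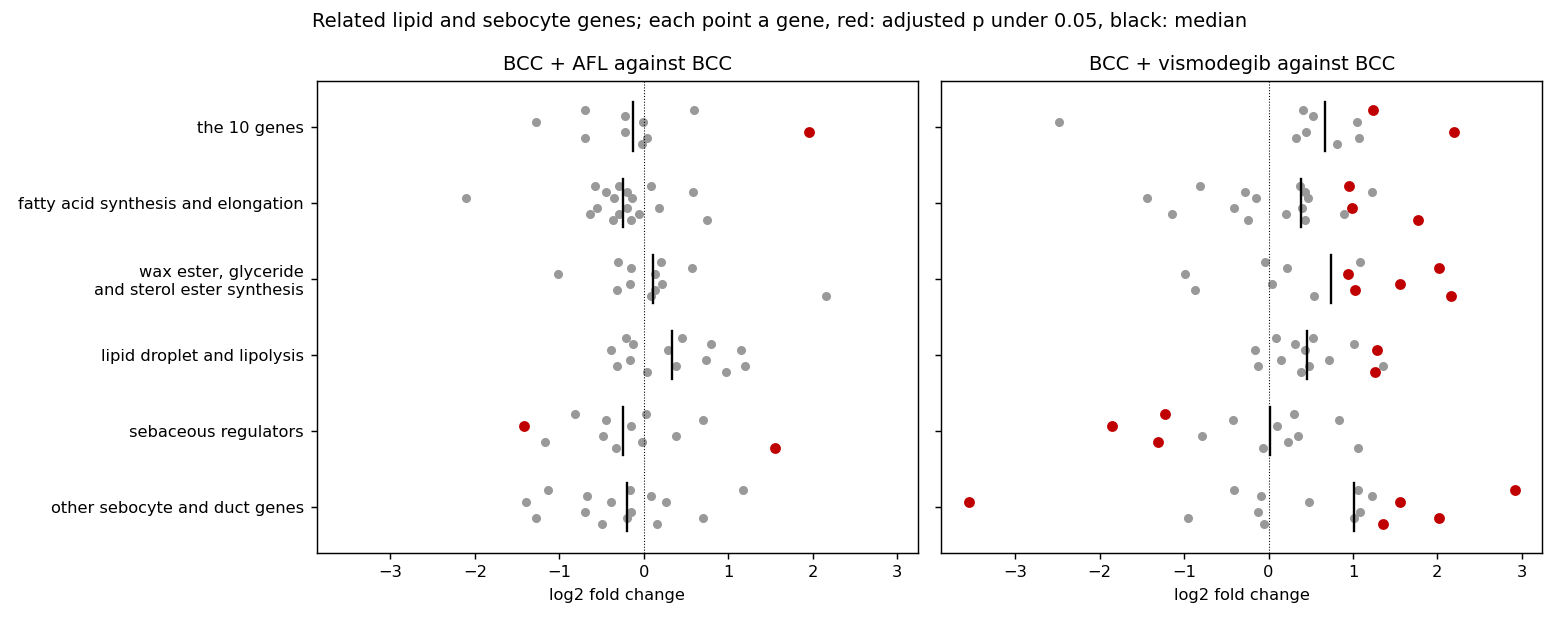
Log2 fold changes of the genes of each related list for the treated groups against BCC skin, with the list median as a line. The 10 genes form the top row, points are genes, and red points passed at an adjusted p under 0.05; the medians of the other lists after vismodegib are 0.38, 0.74, 0.45, 0.02 and 1.02 in the order of fatty acid, ester synthesis, droplet, regulator and sebocyte genes.

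Relative to healthy skin, 3 of 18 fatty acid synthesis and elongation genes were higher and 1 was lower after vismodegib, namely Elovl7 (1.82, edgeR adjusted p = 0.00206), Elovl4 (1.67, 0.0236) and Hsd17b12 (1.09, 0.0166) higher and the desaturase gene Fads1 lower (-1.34, 0.0358). Of 12 ester synthesis genes 4 were higher, namely Dgat2l6 (2.52, 0.00867), Awat1 (1.89, 0.0124), the fatty alcohol gene Far1 (1.93, 0.0221) and Soat2 (2.62, 0.0136). Of 14 droplet genes Abhd5 (1.07, 0.00321) and Hilpda (2.83-fold, 0.0149) were higher. Of 15 sebocyte genes 5 were higher, namely Fabp5 (2.77, 0.0051) and the genes Elovl4, Dgat2l6, Awat1 and Far1 already counted above. Of 12 regulators Thrsp, a regulator of lipid synthesis also active in fat cells, was lower (-2.81, 0.0199). These counts stand against the 11.6% of all tested genes that passed there. With the growing-hair covariate 1 gene was higher in each of the fatty acid, ester, droplet and sebocyte lists, while 6 droplet genes and 5 regulators were lower. With only these groups fitted 1 fatty acid gene and 1 droplet gene were higher, and with DESeq2 8 sebocyte genes were higher and 3 droplet genes lower. Without vismodegib mouse 9 the higher genes were 1 in the fatty acid list, 1 in the droplet list and 3 in the sebocyte list, and without vismodegib mouse 6 they were 4 in the droplet list and 8 in the sebocyte list. Fads1 was the single lower gene of its list, where none was lower without healthy mouse 13, 14 or 16 or vismodegib mouse 1, 9 or 12, with only these groups fitted or with the growing-hair covariate. No regulator was lower without vismodegib mouse 1 or 9, and 2 were without vismodegib mouse 6. Of droplet genes, 3 were lower without healthy mouse 10 and 2 without vismodegib mouse 12. The sebocyte genes higher were 3 without healthy mouse 13.

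After laser relative to healthy skin Soat2 (2.62, edgeR adjusted p = 0.0145) and Hilpda (1.42, 0.0248) were higher and Ldhb was lower (-0.92, 0.0091), and none of the 3 lists these genes belong to had a gene that passed without laser mouse 11. Hilpda's list had none without healthy mouse 14, 15 or 16 either. With the growing-hair covariate neither Soat2's nor Hilpda's list had a higher gene, and 2 genes of Hilpda's list were lower. Between BCC and healthy skin, Lrig1 (1.44, edgeR adjusted p = 0.0128) and Krt7 (2.70, 0.00531) were the genes of these 5 lists that passed, and both were higher in BCC skin. Of droplet genes, 3 were lower in BCC skin with DESeq2 or without healthy mouse 10, and with the growing-hair covariate 5 droplet genes and 4 regulators were lower. Without healthy mouse 10, 3 fat cell markers were lower too. The lowest log2 fold change between BCC and healthy skin was -2.09 in both the droplet list and the fat cell markers. These lists may therefore share genes, and falls of droplet genes are not separate from those of fat cell markers.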

How the data were processed

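Poly-A RNA of skin was sequenced in 19 libraries from 16 mice. The authors deposited RSEM expected counts per gene, not normalised, and per the submitters' processing notes Bowtie2, RSEM and GRCm39 were used. The sources used here give no versions, annotation, filters or strand setting. Reads of antisense partners may therefore be mixed. Of the values, 3.42% were not whole, and all were rounded. Libraries of the same mouse (mice 11, 12 and 16) were summed. The labels give the libraries of mouse 16 different ages, 128 and 135 days. In R 4.3.3, edgeR 4.0.16 (TMM, filterByExpr, robust quasi-likelihood F test) was fitted once over all 16 mice with 6 contrasts. p-values were adjusted by Benjamini-Hochberg over 15760 genes, and a gene passed at an adjusted p under 0.05. SE is the absolute log2 fold change over the square root of F, and intervals are 95%. The labels call every library a biological replicate, but mice 11, 12 and 16 gave 2 libraries each, so n counts mice.

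The alternatives tried were library size alone, RLE scaling, DESeq2 1.42.0, other filters, unsummed libraries, a replicate block, fits of only the groups compared, covariates, and leaving out each mouse. Counts of the related lists under these alternatives were added after the data were seen. The fit was tested on simulated counts. The 10 genes and the lists were chosen with earlier results of these data known. Named genes were these 10, up to 4 list genes per direction with the smallest p, and the 3 most alike genes by Pearson r, not all of which are reported here. Promoter windows (RefSeq, GRCm38.p6) and transcripts (GENCODE M21) are of another build than the counts and were used for sequence and length only.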

Additional observations from a re-analysis of the deposited data

Results flagged for a closer look

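Elovl3 in healthy mouse 10 stood at 123 CPM, apart from the other 4 healthy mice, the nearest of which had 59.3 CPM. The gap was 0.816 of the range of the group, above the limit of 0.71 for 5 samples. Of 30 groups of values tested, 1 passed its limit, and chance flags about 1 in 20 groups. That mouse had the highest growing-hair level of all mice (mean log2 CPM 9.81), and its part in the Elovl3 value was not tested. Without that mouse the log2 fold change of Elovl3 was 0.98 for BCC against healthy skin and 3.11 for vismodegib against healthy skin.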

How the results depend on the processing

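The value of each gene in each of the 6 comparisons, 60 results in all, was recomputed under 17 or 18 alternatives, 1050 values in all. None of the 9 calls changed sign. A call was lost in 16 values, a value passed that had not in 41, and 60 values changed sign, all of differences that had not passed. The cause was not tested. Groups of 3 to 5 mice limit the precision, and the 4 lost calls without a mouse in the laser group rest on 2 mice.

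Sign changes for BCC against healthy skin were Far2 with the growing-hair covariate (-0.53) and Plin2 with DESeq2 or RLE scaling (0.0055 each), library size alone (0.062) and no filter (0.0084). For laser against vismodegib, Scd3 with days since induction gave -0.48. For laser against BCC skin, the replicate block gave 0.026 for Awat2, 0.067 for Elovl3, 0.030 for Far2 and 0.23 for Scd1. Dgat2 gave -0.12 with library size alone, -0.074 with unsummed libraries, -0.43 with the hair covariate and -1.28 with days, and Soat1 with days gave -0.30. For laser against healthy skin, Far2 with the block gave 0.40. For vismodegib against BCC skin, Awat2 gave -0.20 with library size alone and -0.17 with the hair covariate, and Fasn with days gave -0.17. For vismodegib against healthy skin, Awat2 gave -0.42 with library size alone, -0.064 with the filter of 1 CPM, -0.19 with unsummed libraries, -0.0061 with only these groups and -1.24 with the hair covariate. Scd1 gave -0.22, -0.13 and -0.93 with library size alone, unsummed libraries and the hair covariate.

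Without 1 mouse at a time, sign changes lay in these ranges of log2 fold change. For BCC against healthy skin they were -0.53 to 0.21 for Awat2 and -0.094 to 0.048 for Plin2. For laser against BCC skin they were -0.77 to 0.034 for Awat2, -0.65 to 0.37 for Dgat2, -0.37 to 0.24 for Elovl3, -0.76 to 0.052 for Far2 and -0.42 to 0.22 for Scd1. They were -0.35 to 1.93 for Scd3 between laser and vismodegib and -0.55 to 0.25 for Far2 between laser and healthy skin. For vismodegib they were -0.16 to 0.63 for Awat2 against BCC skin, and -0.51 to 0.53 for Awat2 and -0.19 to 0.41 for Scd1 against healthy skin.

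The number of genes that passed moved by over 1.5 times as follows. For BCC against healthy skin it was 445, but 911 with DESeq2, 967 with the hair covariate and 265 to 798 without 1 mouse (798 without BCC mouse 3, 265 without BCC mouse 4, 285 and 278 without healthy mice 13 and 14). For laser against BCC skin it was 1221, but 1977 with DESeq2, 2068 with unsummed libraries, 715 with days and 597 to 1190 without 1 mouse (597 without laser mouse 11). For vismodegib against BCC skin it was 2684, but 984 with only these groups, 1535 with days and 1503 to 3418 without 1 mouse (1679, 1503 and 1762 without BCC mice 4 and 8 and vismodegib mouse 9). For laser against vismodegib it was 1442, but 2507 with DESeq2, 2612 with unsummed libraries, 642 with only these groups and 732 to 1487 without 1 mouse (732, 847 and 830 without laser mice 2 and 11 and vismodegib mouse 1). For laser against healthy skin it was 1456, but 2479 with DESeq2, 3058 with unsummed libraries, 2874 with only these groups and 799 to 1665 without 1 mouse (799 without laser mouse 11). For vismodegib against healthy skin it was 1834, but 3136 with DESeq2, 3425 with unsummed libraries, 1040 with the replicate block, 1121 with only these groups and 951 to 3490 without 1 mouse (3490 without vismodegib mouse 6, 951 without vismodegib mouse 9, and 1062, 1099, 993 and 984 without healthy mice 13 to 16).

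Replicate numbers are shared between groups in the labels but do not pair the mice, since deviations of mice with the same number correlated at -0.349 to 0.637. With the replicate number as a block, Scd3 did not pass for vismodegib against healthy skin (-2.92, adjusted p = 0.0783), and the counts of genes in the other 5 comparisons stayed within 1.5 times. Among the related lists, the block left 1 riser each in the ester, droplet and sebocyte lists for vismodegib against BCC skin. For vismodegib against healthy skin it left 1 higher gene in the fatty acid list, 2 in the ester list, 1 in the droplet list and 2 in the sebocyte list, and no lower regulator.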
